A study of Mus musculus with 18 samples.

Results

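The genes described here encode apolipoproteins and the proteins that load, cut or take up lipoproteins: Apoe, Apoa1, Apoa2, Apob, Apoc1 and Apod among the apolipoproteins, the lipase Lpl, and the receptors Lrp1, Lrp8 and Vldlr. They were taken by gene symbol, and all 10 were found among the 30172 genes listed for every library. The RNA came from whole ovaries of wild-type C57BL/6J F1 females whose mothers had eaten either chow with 3% methionine, which raises homocysteine in the blood (F1-HHcy, for hyperhomocysteinemia), or normal chow (F1-Control). The maternal diet began 4 weeks before mating according to the labels and went on through gestation and lactation, the fathers ate a normal diet, and the pups themselves were not treated. Ovaries were taken on postnatal day 3, 7 or 21 (Pd3, Pd7, Pd21), with 3 libraries for each of the 6 groups and 18 in all. Pd3 and Pd7 formed batch 1 and Pd21 formed batch 2 in the labels, so age and batch cannot be told apart wherever Pd21 is set against another day. Whether a library held 1 pup or several, and whether pups came from separate litters, was not given in the sources used here, so p-values measure the spread between these libraries only.

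Lipoproteins are particles of lipid and protein that carry cholesterol and triglycerides between tissues, and apolipoproteins give them their structure and their affinity for receptors. The apolipoprotein B particles of the blood are largely kept out of the follicle by its basement membrane, so that follicular fluid holds mainly high-density lipoprotein, whose main protein is apolipoprotein A-I. Lipoprotein lipase frees fatty acids from triglyceride-rich particles at the vessel wall, and the lipoprotein receptors of the Lrp1 and Vldlr family bind apolipoprotein E and bring particles and many other ligands into the cell. Granulosa and theca cells use such cholesterol for steroid synthesis.

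All values are levels in FPKM, the fragments of a gene scaled to its length in kilobases and to the fragments counted on all genes of the library, with the SD over n = 3 libraries behind each mean. The libraries held between 33630533 and 39399191 counted fragments. Of the 10 genes, 6 reached 1 FPKM in at least 3 libraries of every comparison and were tested (Apoe, Apoa1, Apoc1, Lpl, Lrp1, Vldlr), and 4 (Apoa2, Apob, Apod, Lrp8) were too low and are given by their values. Log2 fold changes are from limma on log2(FPKM + 1) with their standard error (SE), which understates changes of low genes, and a gene was called higher or lower when its p, adjusted by the Benjamini-Hochberg method over all genes of the fit, was under 0.05. The labelled tissue was checked by its markers, and the summed level of 10 oocyte genes lay between 714 and 2193 FPKM. Several libraries stood apart. F1-HHcy Pd3 replicate 3 had a summed level of 8 theca genes of 101 FPKM against 737 and 388 FPKM in the other F1-HHcy Pd3 libraries, and F1-Control Pd7 replicate 2 had the highest sum of all FPKM values, 532003 against 400360 to 469733 elsewhere. In the F1-Control Pd21 libraries, 7 oviduct and multiciliated cell genes summed to 92.9 to 483 FPKM against 5.37 to 10.2 FPKM in F1-HHcy.

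At Pd3, 5 of the 6 tested genes had a positive log2 fold change in F1-HHcy against F1-Control ovaries, and 1 of them, the endocytic receptor gene Lrp1, was called higher. Over all 13277 genes tested at Pd3, 1.64% were called higher and 1.43% lower. The groups did not overlap for 4 of the 6 (Apoa1, Apoe, Lrp1, Vldlr), against 27.9% of all genes tested. At Pd7, the same 4 genes again had groups that did not overlap, against 39.0% of 13299 genes, and 3 of the 6 were called higher (Lrp1, Vldlr, Apoa1) where 5.88% of all genes were higher and 5.98% lower. At Pd21, none of the 6 was called in limma, where 0% of 13350 genes were higher and 2.23% lower, and 914 genes had an unadjusted p under 0.05. Voom on the recovered fragments also called none of the 6 at Pd21, and 0 genes higher and 259 lower in all. Every one of the 6 had overlapping groups at Pd21, against 10.5% of all genes without overlap. The median log2 fold change of the 6 genes was 0.74, 0.60 and -0.23 at the 3 ages in order, and that of all genes tested was -0.03, -0.0015 and -0.01.

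**Figure D1:**
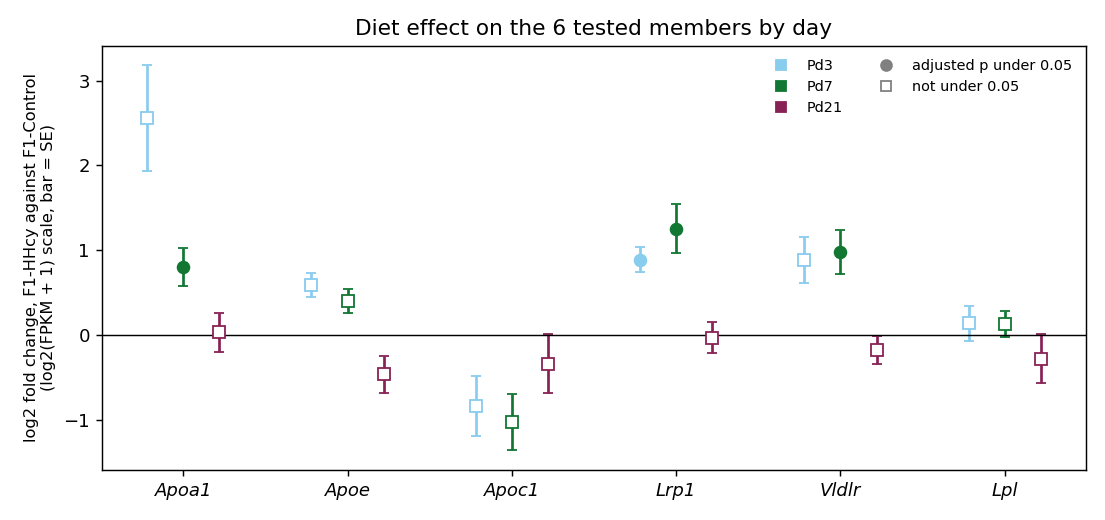
Log2 fold change of F1-HHcy against F1-Control ovaries on the log2(FPKM + 1) scale for the 6 tested genes, at Pd3, Pd7 and Pd21, with bars for the SE and n = 3 libraries per group. Filled circles have an adjusted p under 0.05 and open squares do not; Lrp1 was called at Pd3 and Pd7, Apoa1 and Vldlr at Pd7, and at Pd21 all 6 changes were open and between -0.46 and 0.03.

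Promoter sequences are shown for the 4 genes whose diet groups did not overlap at Pd3 and Pd7, so that their starts can be compared. They are from RefSeq on GRCm38.p6 and run 5′ to 3′ from 250 bases before to 50 bases after a listed transcript start. The table held 8 of the 10 genes. Capitals mark the E-box, CANNTG on either strand, which reads the same on both strands and is bound by basic helix-loop-helix factors, among them factors of the oocyte. The E-box was chosen after the values of the genes were seen, and 72.3% of the 32851 promoters in the table hold it.
Apoa1 (chr9:46228380-46228679, plus strand): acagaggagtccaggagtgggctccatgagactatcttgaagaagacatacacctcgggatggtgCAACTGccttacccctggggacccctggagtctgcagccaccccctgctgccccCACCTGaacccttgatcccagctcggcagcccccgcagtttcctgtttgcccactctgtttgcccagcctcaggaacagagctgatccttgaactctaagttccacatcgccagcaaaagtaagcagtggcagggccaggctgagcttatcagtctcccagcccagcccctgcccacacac
Apoe (chr7:19699139-19699438, minus strand): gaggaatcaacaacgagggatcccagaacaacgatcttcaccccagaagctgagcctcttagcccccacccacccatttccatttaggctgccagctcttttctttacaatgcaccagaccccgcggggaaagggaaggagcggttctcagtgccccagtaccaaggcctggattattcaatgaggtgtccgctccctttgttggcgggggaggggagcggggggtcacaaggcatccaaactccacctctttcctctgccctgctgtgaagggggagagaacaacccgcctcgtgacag
Lrp1 (chr10:127621099-127621398, minus strand): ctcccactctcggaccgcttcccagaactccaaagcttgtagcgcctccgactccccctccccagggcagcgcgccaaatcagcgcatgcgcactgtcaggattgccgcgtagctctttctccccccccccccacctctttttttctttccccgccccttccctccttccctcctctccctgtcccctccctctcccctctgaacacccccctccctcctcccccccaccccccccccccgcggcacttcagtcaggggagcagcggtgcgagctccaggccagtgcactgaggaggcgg
Vldlr (chr19:27216770-27217069, plus strand): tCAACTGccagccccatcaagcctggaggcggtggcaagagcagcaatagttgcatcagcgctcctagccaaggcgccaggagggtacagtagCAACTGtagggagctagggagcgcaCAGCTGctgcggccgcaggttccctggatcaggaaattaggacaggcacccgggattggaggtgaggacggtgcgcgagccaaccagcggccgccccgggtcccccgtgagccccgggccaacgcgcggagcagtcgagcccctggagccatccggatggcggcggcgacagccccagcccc
The Apoa1 window held 2 E-boxes and the window shown for Vldlr 3, while the Lrp1 window and the window shown for Apoe held none. Of 2 other windows listed for Apoe, 1 held an E-box. GC content was 59.3% for Apoa1, 57.7% for Apoe, 67.7% for Lrp1 and 68.0% for Vldlr, against a median of 52.7% over all promoters in the table. CpG dinucleotides were few in Apoa1, with 4, and many in Vldlr, with 23, against a median of 7. A second listed start of Vldlr, upstream of the one shown, had 43.0% GC, 8 CpG and no E-box. The SF-1 site CAAGGTCA (in 1.56% of all promoters), direct repeats of AGGTCA spaced by 1 base (DR1, 0.0396%) or by 4 bases (DR4, 0.0152%) and the sterol regulatory element TCACCCCAC (0.551%), each searched on both strands, were in no window of the 8 genes. DR1 and DR4 share their repeated letters and differ in the spacing.

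Apoa1 encodes apolipoprotein A-I and lies on chromosome 9 between 46228580 and 46230466 on the plus strand. In F1-Control ovaries at Pd3 its level was 1.93, 2.60 and 4.50 FPKM, the lowest of any group. In F1-HHcy ovaries at Pd3 it was 55.1, 24.6 and 7.22 FPKM, so that every F1-HHcy library lay above every F1-Control library and the F1-HHcy libraries differed widely among themselves. The means were 3.01 ± 1.33 and 29.0 ± 24.2 FPKM, a 9.63-fold ratio. The log2 fold change was 2.56 (SE 0.63, unadjusted p = 0.00395 from limma) and was not called (adjusted p = 0.0706). Leaving out F1-HHcy Pd3 replicate 3, the library with the low theca sum, gave a log2 fold change of 3.29 (adjusted p = 0.00128 from limma). Leaving out F1-HHcy Pd3 replicate 1 gave 1.91, which was not called.

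At Pd7, Apoa1 reached 19.3, 25.0 and 39.4 FPKM in F1-Control and 42.8, 48.5 and 50.9 FPKM in F1-HHcy ovaries. The groups did not overlap, and the log2 fold change of 0.80 (SE 0.23) was called in limma (adjusted p = 0.0491). This call is narrow: leaving out any one of 5 of the 6 libraries, F1-Control Pd7 replicate 3 being the exception, gave adjusted p-values between 0.0975 and 0.137 in limma. The call of Apoa1 also ended with a pseudocount of 0.1 (adjusted p = 0.0548), without a filter (0.156), with median-ratio scaling (0.0663), with all 18 libraries in 1 model (0.252) and with voom on the recovered fragments (0.0572, or 0.0701 without a filter). At Pd21 the levels were 46.2, 50.4 and 34.6 FPKM in F1-Control and 31.6, 48.3 and 56.3 FPKM in F1-HHcy ovaries, with means of 43.7 ± 8.17 and 45.4 ± 12.6 FPKM. The order of the group means was F1-Control Pd3, F1-Control Pd7 (27.9 ± 10.4 FPKM), F1-HHcy Pd3, F1-Control Pd21, F1-HHcy Pd21 and F1-HHcy Pd7 (47.4 ± 4.19 FPKM), and from the second place on every neighbour overlapped with the next.

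Levels of marker genes moved with Apoa1 at Pd3. The 8 granulosa cell genes summed to 114 to 120 FPKM in F1-Control and to 485, 292 and 174 FPKM in F1-HHcy, in the same order of libraries as Apoa1, and 2 of the 6 tested were called higher. That order was not particular to granulosa genes. The theca, stroma, endothelial, smooth muscle and adipocyte sums had it too, while the sums of the other marker lists did not. The oocyte list was mixed, with 2 of 10 genes called higher at Pd3 and 0 lower. Gdf9 (215, 168 and 83.9 FPKM, against 33.5 to 52.3 FPKM in F1-Control) had the order of Apoa1 in F1-HHcy. So had Bmp15 (34.0, 20.1 and 3.70 FPKM, against 0.707 to 1.80 FPKM) and Zp1. Ddx4, Dazl, Figla, Nobox and Sohlh1 had the reverse order, and Zp2 and Zp3 had neither. Apoa1 is an abundant product of hepatocytes, and the 10 hepatocyte genes summed to 0.382 to 0.880 FPKM in F1-Control and 1.88 to 5.14 FPKM in F1-HHcy. The sum of 5.14 FPKM was in F1-HHcy Pd3 replicate 3, the F1-HHcy library with the lowest Apoa1, where Serpina1b and Serpina1a alone reached 2.504 and 1.32 FPKM. Ahsg, which encodes the plasma protein fetuin-A, was 0.113, 0.276 and 0.639 FPKM in F1-Control and 1.80, 1.81 and 0.862 FPKM in F1-HHcy at Pd3, levels that were low but did not overlap between the diets. Alb, which encodes albumin, stayed at or below 0.468 FPKM in all 18 libraries. In whole-ovary RNA, fewer cells of a type and less RNA per cell cannot be told apart, and the part of the marker shifts in the results was not tested. Erythroid genes moved the other way, with 6 of 6 called lower at Pd3 and sums of 1481 to 4646 FPKM in F1-Control against 282 to 435 FPKM in F1-HHcy. With hemoglobin and mitochondrially encoded genes left out of the libraries, 1 of the 6 tested genes was still called higher at Pd3 and 3 at Pd7.

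Apoe encodes apolipoprotein E, a ligand of Lrp1, Lrp8 and Vldlr, and lies on chromosome 7 between 19696109 and 19699188 on the minus strand. It had the highest level of the 10 genes in every group. At Pd3 it was 71.2, 77.7 and 56.5 FPKM in F1-Control and 101, 94.8 and 113 FPKM in F1-HHcy ovaries, and at Pd7 it was 102, 110 and 96.5 FPKM in F1-Control and 124, 137 and 148 FPKM in F1-HHcy ovaries. The F1-HHcy libraries lay above the F1-Control libraries at both days. The log2 fold changes of 0.59 (SE 0.14, adjusted p = 0.0665) at Pd3 and 0.40 (SE 0.15, adjusted p = 0.0974) at Pd7 were not called in limma, though the Pd3 change was called without F1-HHcy Pd3 replicate 3 (0.52, adjusted p = 0.0358). Without F1-Control Pd3 replicate 3 the Pd3 change was 0.46 and was not called. At Pd21 the direction was opposite, with 196, 173 and 140 FPKM in F1-Control and 148, 92.4 and 131 FPKM in F1-HHcy ovaries. The groups overlapped and the log2 fold change was -0.46 (SE 0.21, adjusted p = 0.813 from limma). The oviduct and multiciliated sums given above were likewise higher in F1-Control at Pd21, and their part in the Apoe level was not tested.

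Apoc1 encodes a small apolipoprotein that slows the uptake and lipolysis of lipoproteins, and its gene follows that of Apoe on chromosome 7, between 19689481 and 19692660. It was the only one of the 6 tested genes with a negative log2 fold change at both Pd3 and Pd7. Its level was 26.8, 22.6 and 12.9 FPKM in F1-Control against 6.27, 15.4 and 12.4 FPKM in F1-HHcy ovaries at Pd3. At Pd7 it was 13.4, 23.6 and 7.20 FPKM against 5.13, 7.62 and 5.50 FPKM. A single pair of libraries overlapped at each of these days. The log2 fold changes were -0.84 (SE 0.35, adjusted p = 0.214) at Pd3 and -1.03 (SE 0.33, adjusted p = 0.0718) at Pd7, neither called in limma. Without F1-Control Pd7 replicate 3, the Pd7 change was -1.43 (adjusted p = 0.00642 from limma). Without F1-Control Pd7 replicate 2 the Pd7 change was -0.63 and was not called. At Pd21 the level was 10.6, 14.7 and 10.9 FPKM in F1-Control and 13.5, 4.54 and 12.3 FPKM in F1-HHcy ovaries, and the groups overlapped.

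Lrp1 encodes a large endocytic receptor for apolipoprotein E, protease complexes and matrix proteins and lies on chromosome 10 between 127538161 and 127621148 on the minus strand. At Pd3 it was 16.8, 16.1 and 23.4 FPKM in F1-Control and 37.1, 33.2 and 35.0 FPKM in F1-HHcy ovaries. The F1-HHcy libraries lay close together and above all F1-Control libraries, with means of 35.1 ± 1.92 and 18.7 ± 4.05 FPKM. The 1.87-fold ratio of means corresponded to 0.89 on the log2 scale (SE 0.15), which was called in limma (adjusted p = 0.0320). At Pd7 it was 35.9, 14.2 and 31.4 FPKM in F1-Control and 58.4, 67.2 and 59.9 FPKM in F1-HHcy ovaries. Again the groups did not overlap, and the log2 fold change of 1.26 (SE 0.29) was called in limma (adjusted p = 0.0229). The lowest value was that of F1-Control Pd7 replicate 2, the library with the high FPKM sum, and without it the log2 fold change was 0.86. At Pd21 the levels were 40.9, 53.1 and 36.8 FPKM in F1-Control and 47.0, 34.7 and 46.0 FPKM in F1-HHcy ovaries, which overlapped.

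The Lrp1 calls depended on single libraries. The call at Pd3 was lost without F1-Control Pd3 replicate 1 (adjusted p = 0.190) or 2 (0.154) and without F1-HHcy Pd3 replicate 1 (0.0827) or 2 (0.0915), and the call at Pd7 without F1-HHcy Pd7 replicate 1 (0.0551), 2 (0.0676) or 3 (0.0720), in limma. Over all fits that left out 1 library, the log2 fold change stayed between 0.79 and 1.05 at Pd3 and between 0.859 and 1.501 at Pd7. At Pd7, all 8 theca cell genes were called higher, and their sum was 251 to 485 FPKM in F1-Control and 1194 to 1255 FPKM in F1-HHcy ovaries. Also called higher at Pd7 were 2 of 3 adipocyte genes, 2 of 8 granulosa genes and 1 of 7 stroma genes. Other markers fell at Pd7: of 10 oocyte genes 5 were called lower and 1 higher. Called lower were also 4 of 7 surface epithelium genes, 3 of 3 erythroid genes and 2 of 5 oviduct and multiciliated genes. The 7 stroma genes summed to 475 to 658 FPKM in F1-Control and 926 to 1209 FPKM in F1-HHcy at Pd3, with 4 called higher. The part of these shifts in the Lrp1 differences was not tested.

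Vldlr encodes the very-low-density lipoprotein receptor, which binds apolipoprotein E and reelin, and lies on chromosome 19 between 27216484 and 27254231 on the plus strand. Its level was low at Pd3, with 0.971, 0.882 and 1.25 FPKM in F1-Control and 4.37, 2.96 and 1.49 FPKM in F1-HHcy ovaries. The groups did not overlap, and the F1-HHcy libraries followed the same order as for Apoa1. The ratio of means was 2.84 and the log2 fold change 0.89 (SE 0.27, adjusted p = 0.117 from limma), which was not called. It was called without F1-HHcy Pd3 replicate 3 (1.19, adjusted p = 0.00443 from limma). Without F1-HHcy Pd3 replicate 1 the change was 0.63 and was not called. At Pd7 the level was 2.21, 1.99 and 5.21 FPKM in F1-Control and 6.43, 7.50 and 6.19 FPKM in F1-HHcy ovaries. The change of 0.98 on the log2 scale (SE 0.26) was called in limma (adjusted p = 0.0392), and of the 6 libraries, leaving out any but F1-Control Pd7 replicate 3 ended the call, with adjusted p-values of 0.0873 to 0.122. At Pd21 the level was 4.13, 4.17 and 4.89 FPKM in F1-Control and 3.96, 3.17 and 4.22 FPKM in F1-HHcy ovaries, which overlapped.

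Lpl encodes lipoprotein lipase and lies on chromosome 8 between 68880491 and 68907448 on the plus strand. It showed no called difference between the diets on any day. At Pd3 it was 27.7, 26.5 and 22.8 FPKM in F1-Control and 32.9, 34.2 and 19.95 FPKM in F1-HHcy ovaries, where the log2 fold change was 0.14 with a 95% interval from -0.34 to 0.61. At Pd7 it was 30.1, 26.7 and 35.4 FPKM against 36.6, 29.8 and 34.5 FPKM, with a log2 fold change of 0.13 and an interval from -0.21 to 0.47. The groups overlapped on both days. Without F1-HHcy Pd3 replicate 3, which held the lowest value, the Pd3 change was 0.38 and was called (adjusted p = 0.0491 from limma). Without F1-HHcy Pd3 replicate 2 the Pd3 change was 0.003 and was not called. At Pd21 it was 42.6, 58.5 and 103 FPKM in F1-Control and 49.2, 47.4 and 60.8 FPKM in F1-HHcy ovaries. The highest value, 103 FPKM, was in F1-Control Pd21 replicate 3, which also had the highest sum of the 8 adipocyte genes, 123 FPKM. That sum was 44.3 to 123 FPKM in F1-Control and 6.03 to 54.4 FPKM in F1-HHcy ovaries at Pd21, and its part in the Lpl level was not tested.

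**Figure D2:**
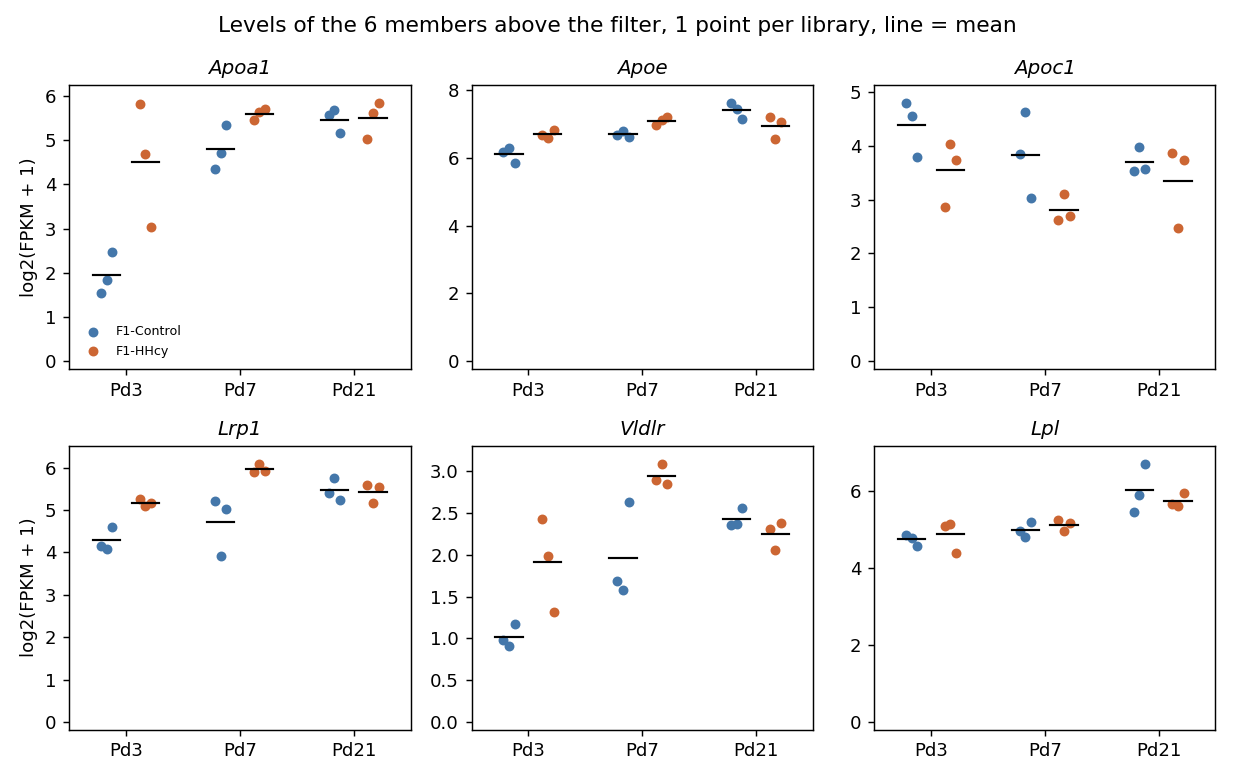
Levels of the 6 tested genes as log2(FPKM + 1) by day and diet, with 1 point per library, 3 libraries per group and a line for the group mean. Apoa1 spans 1.93 to 56.3 FPKM over the 18 libraries with its lowest group in F1-Control Pd3, while Apoe spans 56.5 to 196 FPKM and Lpl is highest at 103 FPKM in 1 F1-Control Pd21 library.

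The order of the genes by level per length differed between groups. In F1-Control ovaries at Pd3, Apoe (68.5 ± 10.9 FPKM) was followed by Lpl (25.7 ± 2.55), Apoc1 (20.7 ± 7.14), Lrp1 (18.7 ± 4.05), Apoa1 (3.01 ± 1.33) and Vldlr (1.03 ± 0.192). The ranges of Lpl, Apoc1 and Lrp1 overlapped there. In F1-HHcy ovaries at Pd7, Apoe (136 ± 11.8 FPKM) was followed by Lrp1 (61.8 ± 4.72), Apoa1 (47.4 ± 4.19), Lpl (33.6 ± 3.46), Vldlr (6.71 ± 0.699) and Apoc1 (6.09 ± 1.34). Here Vldlr and Apoc1 overlapped, and every other pair of neighbours was apart.

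The 4 genes below the filter include a main protein of blood lipoproteins. Apob, the structural protein of chylomicrons and very-low-density lipoprotein, had 7 fragments in all, in 5 of the 18 libraries. In the other 13 libraries it had 0 fragments, a count that allows a level of up to 0.00554 to 0.00649 FPKM (3 fragments per library, counting error only). Apoa2, which encodes apolipoprotein A-II of high-density lipoprotein, ranged from 0.0310 to 0.800 FPKM, that is 1 to 27 fragments, and its groups overlapped at each day. Lrp8, which encodes apolipoprotein E receptor 2, ranged from 0.138 to 0.456 FPKM, or 60 to 197 fragments. At Pd3, Lrp8 was 0.317, 0.286 and 0.223 FPKM in F1-Control and 0.152, 0.201 and 0.159 FPKM in F1-HHcy ovaries, the opposite order to Vldlr and Lrp1, and in the fit without a filter its adjusted p was 0.266.

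Apod encodes a lipocalin that carries small lipids such as arachidonic acid. At Pd3 it had 5 to 9 fragments per library in F1-Control and 1 to 2 in F1-HHcy, while at Pd7 it had 2 in each F1-Control library and 5 to 20 in F1-HHcy. The groups did not overlap on either day and lay in opposite order. Among the genes tested, groups did not overlap for 27.9% at Pd3 and 39.0% at Pd7. Voom on the recovered fragments without a filter gave log2 fold changes of -1.73 (adjusted p = 0.270) and 2.26 (adjusted p = 0.0952), neither called. At Pd21 the level was 0.619, 2.65 and 0.321 FPKM in F1-Control and 0.321, 0.488 and 1.43 FPKM in F1-HHcy ovaries, with overlap.

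**Figure D3:**
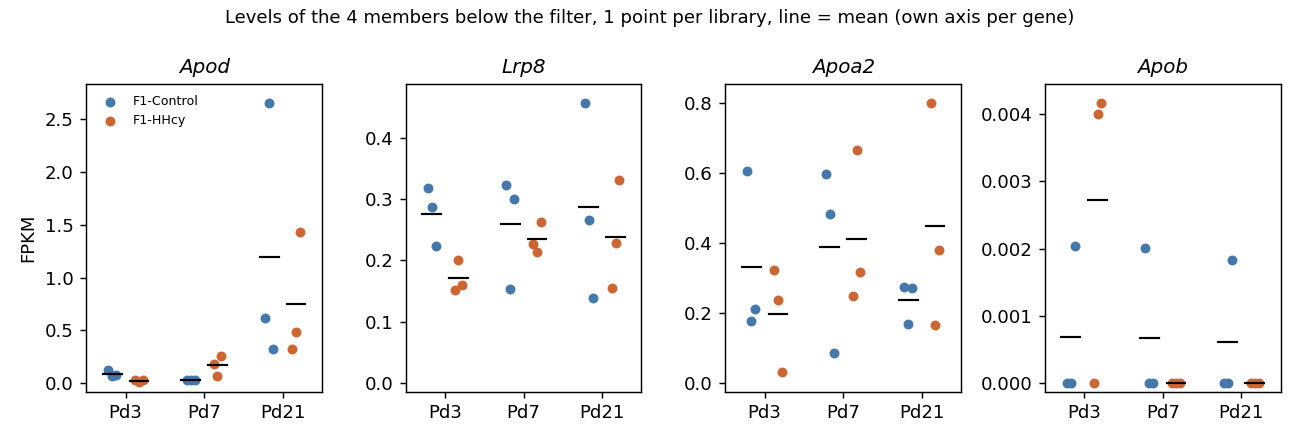
Levels in FPKM of the 4 genes below the filter, by day and diet, with 1 point per library, 3 libraries per group, a line for the mean and a separate linear axis per gene. Apod reaches 2.65 FPKM in 1 F1-Control Pd21 library, Lrp8 and Apoa2 stay below 1 FPKM in all 18 libraries, and Apob is at 0 in 13 of them.

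Between Pd3 and Pd7 in F1-Control ovaries, 3 of the 6 tested genes were called higher at Pd7 (Apoa1, Apoe, Vldlr) and none lower, where 6.90% of 13336 genes were higher and 7.59% lower. The same 3 had groups that did not overlap, against 38.6% of all genes. Apoa1 rose most, by 2.84 on the log2 scale (SE 0.29, adjusted p = 5.94e-04 from limma), and this call held without any one library. Apoe changed by 0.59 (SE 0.15, adjusted p = 0.0303) and Vldlr by 0.95 (SE 0.26, adjusted p = 0.0441) in limma. Both calls ended without F1-Control Pd3 replicate 1, 2 or 3 or Pd7 replicate 3, with adjusted p-values of 0.0599 to 0.101 for Apoe and 0.0748 to 0.145 for Vldlr. Lrp1 changed by 0.43 (SE 0.31, adjusted p = 0.362) and was called without F1-Control Pd7 replicate 2 (0.83, adjusted p = 0.0199). Without F1-Control Pd7 replicate 1 the Lrp1 change was 0.19 and was not called. Apoc1 (-0.55) and Lpl (0.24) were not called. Marker genes moved over the same days in F1-Control: of the granulosa cell genes 7 of 8 tested were called higher, of the stroma genes 5 of 7, of the smooth muscle genes 5 of 5, of the endothelial genes 4 of 5, of the theca genes 3 of 4 and of the oocyte genes 5 of 10, with 2 oocyte genes lower. The only hepatocyte gene tested was called higher too, and 4 of 6 erythroid genes were called lower. The granulosa sum went from 114 to 120 FPKM at Pd3 to 194 to 511 FPKM at Pd7, and the part of these shifts was not tested.

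In F1-HHcy ovaries between Pd3 and Pd7, limma called none of the 6 genes, and 0% of 13257 genes higher and 0% lower, although 3119 genes had an unadjusted p under 0.05. Voom called 0 genes too, while the 6-group fit on all 18 libraries called 335 genes higher and 465 lower. The groups of Apoe, Lrp1 and Vldlr did not overlap, against 30.7% of all genes. The log2 fold change of Lrp1 was 0.80 (SE 0.11, adjusted p = 0.0892), of Vldlr 1.03 (SE 0.27, adjusted p = 0.106), of Apoe 0.40 (SE 0.12, adjusted p = 0.132) and of Apoa1 1.08 (SE 0.60, adjusted p = 0.318) in limma. Without F1-HHcy Pd3 replicate 1, Lrp1 (0.84, adjusted p = 0.0160) and Vldlr (1.29, adjusted p = 0.0208) were called higher and Apoc1 was called lower (-1.08, adjusted p = 0.0231). The smallest changes with 1 library left out were 0.74 for Lrp1, 0.74 for Vldlr and -0.49 for Apoc1. These comparisons share libraries with the diet comparisons: for Apoa1, the F1-Control Pd3 libraries stand on the lower side of both the diet difference at Pd3 and the change to Pd7 in F1-Control.

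The looser criterion, under 0.05 before adjustment and over 0.58 in size on the log2 scale, took in more of the 6 genes. It held for Apoa1, Apoe, Lrp1, Vldlr and Apoc1 at Pd3, against 9.74% of all genes, and for Apoa1, Lrp1, Vldlr and Apoc1 at Pd7, against 16.4%. At Pd21 it held for none, against 5.14%, and for the change from Pd3 to Pd7 in F1-HHcy it held for Lrp1, Vldlr and Apoc1, against 11.1%.

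Whether the diet effect differed between days was tested in 1 model of all 18 libraries with 14607 genes. From Pd3 to Pd21 the effect dropped by 2.53 on the log2 scale for Apoa1 (SE 0.66, adjusted p = 0.0377) and by 1.05 for Apoe (SE 0.24, adjusted p = 0.0174) in limma, where 3.78% of all genes had such a drop. Apoe kept the call except without F1-Control Pd21 replicate 1 (-0.94, adjusted p = 0.0666). Apoa1 lost it in 9 of the 12 fits that left out 1 of the 12 libraries compared, that is without any of them but F1-Control Pd3 replicate 3, F1-HHcy Pd3 replicate 3 and F1-HHcy Pd21 replicate 3, with adjusted p-values between 0.0658 and 0.118. From Pd7 to Pd21, where 2.90% of all genes had a drop, none of the 6 was called in limma, and the differences were -1.29 for Lrp1 (adjusted p = 0.0530), -0.86 for Apoe (0.0572) and -1.15 for Vldlr (0.0972). Between Pd3 and Pd7 none of the 6 was called in limma, where 0.103% of all genes had a rise of the effect and 0.308% a drop, 2017 genes had an unadjusted p under 0.05 and voom called 6 and 33. In that contrast the Apoa1 difference was -1.76 (adjusted p = 0.273 from limma), and it was called without F1-HHcy Pd3 replicate 3 (-2.49, adjusted p = 0.0103). Without F1-HHcy Pd3 replicate 1 it was -1.11 and was not called.

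Other genes of lipoprotein handling were read from 8 lists with 54 genes, of which 34 were tested at Pd3, 35 at Pd7 and 34 at Pd21. The lists were written with earlier results of these data known, and their counts are descriptions. At Pd3, 2 were called higher in F1-HHcy and none lower, against 1.64% higher and 1.43% lower of all genes tested, and the median log2 fold change was 0.20 against -0.03 over all genes. At Pd7, 8 were called higher and none lower, against 5.88% and 5.98% of all genes, with a median of 0.21 against -0.0015. At Pd21 none was called, where 0% of all genes were higher and 2.23% lower. From Pd3 to Pd7 in F1-Control, 6 of 35 were called higher and none lower, against 6.90% and 7.59% of all genes. These were Apoc3, Apoa4, Pltp, Angptl4, Gpihbp1 and Abca1. The diet effect dropped from Pd3 to Pd21 for 3 of 39 tested genes (Apobec1, Pltp and Lrpap1), against 3.78% of all genes. From Pd7 to Pd21 it dropped for 2 of 39 (Apobec1 and Pltp), against 2.90%. None had a called rise in either contrast, against 0.815% and 0.986% of all genes.

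Of the other 10 apolipoproteins, Clu (clusterin) was the most abundant, with 88.03 to 304 FPKM, and was not called on any day. Apoa4, which encodes apolipoprotein A-IV, was 0.222, 0.117 and 0.427 FPKM in F1-Control and 14.3, 4.40 and 1.46 FPKM in F1-HHcy at Pd3. At Pd7 it was 2.12, 2.99 and 9.76 FPKM in F1-Control and 20.7, 16.3 and 41.6 FPKM in F1-HHcy, and the log2 fold change of 2.30 (SE 0.45) was called in limma (adjusted p = 0.0124). Apoc3, an inhibitor of lipoprotein lipase, was 0, 0 and 0.0763 FPKM in F1-Control at Pd3, a total of 2 fragments, and 3.37, 1.94 and 1.44 FPKM in F1-HHcy. It was called higher in F1-HHcy at Pd3 (adjusted p = 0.0211) and at Pd7 (1.37, SE 0.31, adjusted p = 0.0221) in limma.

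Apoa1, Apoc3, Apoa4 and Apoa5 lie next to each other within 43.3 kb of chromosome 9, and Apoe, Apoc1, Apoc4 and Apoc2 within 27.6 kb of chromosome 7. This grouping was made after the values were seen. Apoa1, Apoc3 and Apoa4 shared the same pattern: lowest in F1-Control Pd3, no overlap between the diets at Pd3 and at Pd7, overlap at Pd21, and the same order of the 3 F1-HHcy Pd3 libraries. This pattern was not particular to the neighbours on chromosome 9. Vldlr on chromosome 19 had every part of it, and so did Dab2 and Stab1, which are not among these neighbours. Apoa5, which encodes an activator of lipolysis, stayed at or below 0.264 FPKM. On chromosome 7, Apoe and Apoc1 went in opposite directions at Pd3 and Pd7. Apoc4 and Apoc2, which encodes the cofactor of lipoprotein lipase, were low, with at most 4.34 and 0.649 FPKM.

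**Figure D4:**
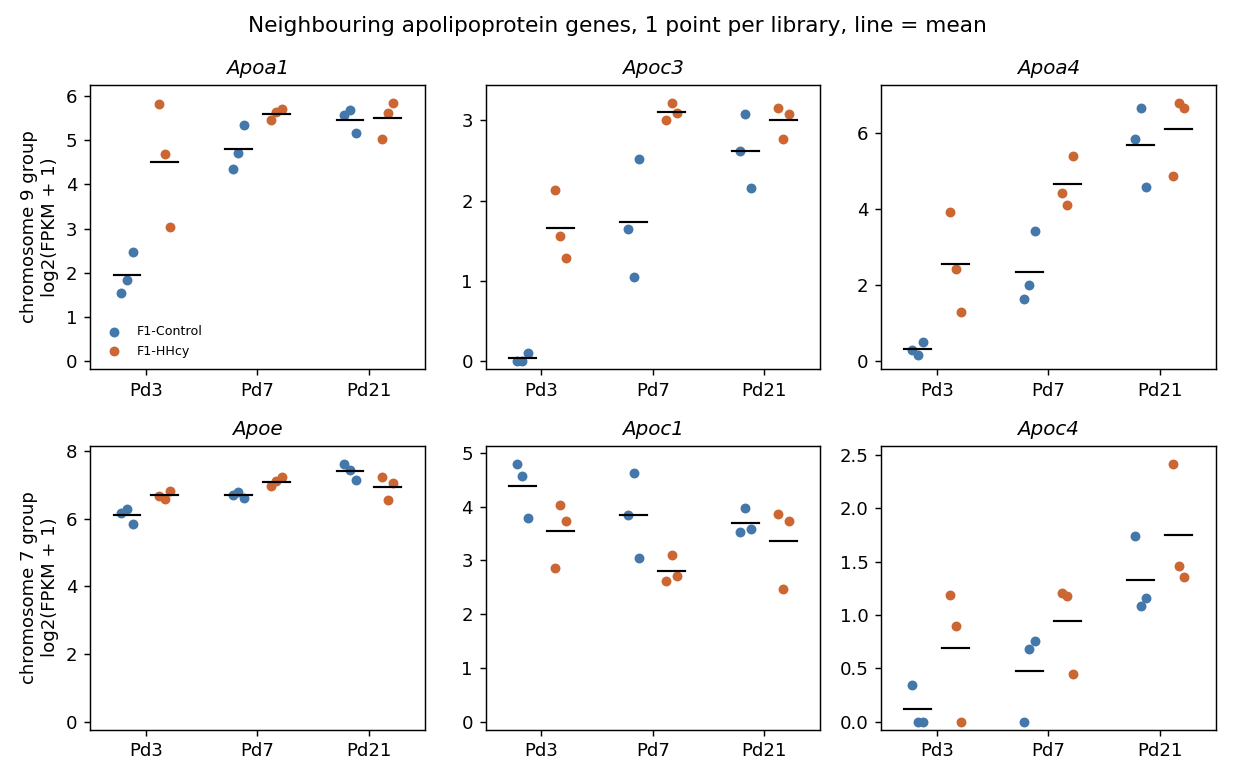
Levels as log2(FPKM + 1) of 3 neighbouring genes on chromosome 9 (upper row) and 3 on chromosome 7 (lower row), by day and diet, with 1 point per library, 3 libraries per group and a line for the mean. In the upper row the F1-HHcy libraries lie above the F1-Control libraries at Pd3 and Pd7 for all 3 genes; in the lower row Apoe is higher and Apoc1 has lower means in F1-HHcy on these days.

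Among lipases and their partners, Pltp, which encodes the phospholipid transfer protein of high-density lipoprotein, was 2.71, 4.45 and 3.32 FPKM in F1-Control and 17.6, 12.1 and 8.79 FPKM in F1-HHcy at Pd3 (log2 fold change 1.59, SE 0.25, adjusted p = 0.0284 from limma). It was called higher at Pd7 as well (0.64, SE 0.13, adjusted p = 0.0149), and its diet effect dropped from Pd3 to Pd21 by 2.45 (adjusted p = 3.39e-04), both in limma. At Pd21 the order was reversed, with 44.8, 32.9 and 40.4 FPKM in F1-Control and 31.1, 13.8 and 21.5 FPKM in F1-HHcy. These groups did not overlap, as for 10.5% of all genes, and the change of -0.86 was not called (adjusted p = 0.287 from limma). Angptl4, an inhibitor of lipoprotein lipase and the most abundant of the list (18.8 to 73.3 FPKM), was not called between the diets. From Pd3 to Pd7 in F1-Control, limma called Pltp (1.66, adjusted p = 5.74e-04), Angptl4 (0.82, adjusted p = 0.0352) and Gpihbp1, which holds lipoprotein lipase on capillary endothelium (0.73, adjusted p = 0.0397), higher at Pd7. Of the assembly genes, Sar1b, which acts in the export of lipoproteins from the endoplasmic reticulum, was the most abundant (26.0 to 59.6 FPKM), and none was called between the diets.

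Of 11 other receptor genes, 9 were tested at Pd7. Lrp4 alone was called between the diets, higher at Pd7, where 5.88% of all genes were higher and 5.98% lower. Its level there was 2.74, 1.35 and 4.46 FPKM in F1-Control and 6.24, 7.74 and 6.72 FPKM in F1-HHcy (1.11, SE 0.27, adjusted p = 0.0280 from limma). Lrp10 was the most abundant of the 11, with 17.2 to 31.3 FPKM. Of the adaptors, Dab2, which links receptors of the Lrp1 and Vldlr family to clathrin, was higher at Pd7 (40.3 ± 3.36 against 21.0 ± 6.09 FPKM, 0.95, adjusted p = 0.0201 from limma). Lrpap1, a chaperone of the receptors and the most abundant of this list (30.5 to 59.7 FPKM), was not called between the diets. Its diet effect dropped from Pd3 to Pd21 (-0.88, adjusted p = 0.0369 from limma). Reln, which encodes the ligand reelin of Vldlr and Lrp8, was at 1.74 to 3.66 FPKM and was not called.

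Of 3 tested scavenger receptor genes 2 were called higher at Pd7, and of 5 tested efflux genes 1, with none lower, against 5.88% higher and 5.98% lower of all genes. Scarb1, which encodes the receptor for selective uptake from high-density lipoprotein, was 17.2, 13.6 and 19.7 FPKM in F1-Control and 30.4, 33.8 and 39.1 FPKM in F1-HHcy (1.00, SE 0.17, adjusted p = 0.00716 from limma). Stab1, a scavenger receptor, changed by 1.03 (adjusted p = 0.0127). Abca1, which passes cholesterol to apolipoprotein A-I, was 15.0, 12.1 and 13.1 FPKM in F1-Control and 21.6, 21.6 and 23.8 FPKM in F1-HHcy (0.70, SE 0.14, adjusted p = 0.0131). None of the 3 was called at Pd3 or Pd21. The most abundant efflux regulator, Nr1h2 (a liver X receptor, 15.2 to 28.7 FPKM), was not called between the diets. The theca sums given above lay in the same direction at Pd7, and their part was not tested.

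**Figure D5:**
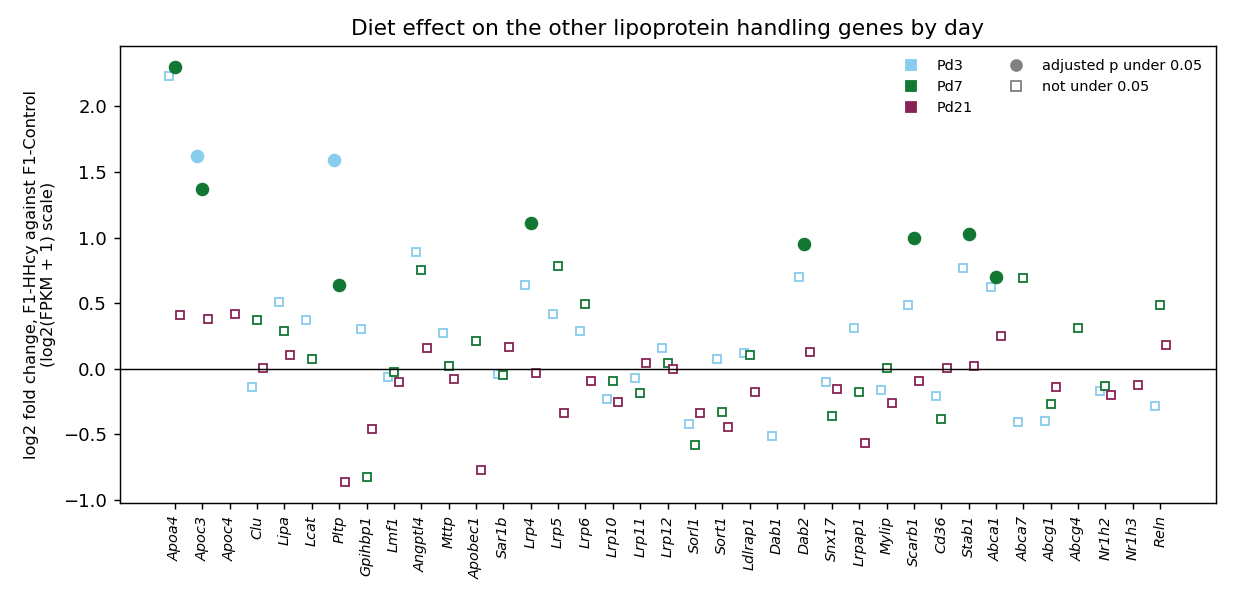
Log2 fold change of F1-HHcy against F1-Control on the log2(FPKM + 1) scale for tested genes of the 8 other lists, at Pd3, Pd7 and Pd21, with 3 libraries per group. Filled circles have an adjusted p under 0.05; the 2 called at Pd3 and the 8 called at Pd7 all lie above 0, and none was called at Pd21.

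Across the 18 libraries, Pearson's r of log2(FPKM + 1) is given as a description, since the libraries share groups, days and batches. Apoa1 and Vldlr had r = 0.90 and Lrp1 and Vldlr r = 0.84, the highest among the 15 pairs of tested genes, and Apoc1 had negative values with all 5 others (-0.73 with Vldlr to -0.21 with Lpl). Among all genes tested, the 3 most alike were Pltp (0.92), Depp1 (0.91) and Fank1 (0.89) for Apoe, and Fbxw20, E330021D16Rik and Oas1e (all 0.98) for Apoa1. For Apoc1 they were Ubxn8 (0.89), 4933440N22Rik (0.87) and Ntpcr (0.86), and for Lpl Clic4 (0.95), C1qtnf6 (0.93) and Ak3 (0.93). For Lrp1 they were Sik3 (0.94), Phactr2 (0.93) and Slc25a42 (0.93), and for Vldlr Adcy5 (0.97), Stard8 (0.97) and Itgb3 (0.96).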

How the data were processed

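Ovarian poly-A RNA was sequenced from stranded libraries, 3 per diet and day. For each library the authors deposited 1 normalized value, not log-transformed and of unnamed unit, per gene. The deposited values were read as FPKM, since dividing out gene lengths and library totals left whole fragments (within 0.03) for 99.996% of 27294 genes above 0 in at least 3 libraries. The submitters' processing notes name FastQC 0.11.9, Trimmomatic 0.39, STAR 2.7.9a, featureCounts 2.0.1, Subread and DESeq2 1.36.0 and the build GRCm38 (mm10). Which of these made the FPKM values was not given in the sources used here. Between 33630533 and 39399191 fragments per library were recovered. Positions are from GENCODE M21 on GRCm38, in which no exon of the 10 genes overlaps another gene.

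A gene was tested where 3 or more libraries of the fit reached 1 FPKM. Tests were made on log2(FPKM + 1) with limma 3.58.1 (R 4.3.3), with a variance trend and Benjamini-Hochberg adjustment. The diets were compared within each day and Pd7 with Pd3 within each diet, on 6 libraries each, and the differences of the diet effect in a 6-group model of 18 libraries. With 3 libraries against 3, the smallest 2-sided p of an exact permutation test of a single gene is 0.1, so none is given. Tests were tried on simulated data. The text names the 10 genes, every gene of the 8 lists called between the diets, the most abundant of a list, and the 3 genes most correlated with each tested gene. Gpihbp1, Apobec1, Ahsg, the Serpina1 genes, the oocyte genes named singly and the neighbours of the clusters were named after their values were seen. A further gene of the lists, not called between the diets, is not reported here. Genes, lists and tests were chosen with earlier results of these data known. Alternatives were a pseudocount of 0.1, no filter, median-ratio scaling, voom on recovered fragments, all 18 libraries in 1 model, leaving out mitochondrially encoded and hemoglobin genes, a looser criterion, the replicate number as a block, and each library left out. Voom without a filter and the E-box were added after seeing the data. Same-numbered libraries deviated together in every pair of Pd3 and Pd7 F1-Control (r = 0.12, 0.24 and 0.26), and in no other comparison were all 3 over 0.1. Figures were drawn with matplotlib 3.10.9 and tables made with pandas 2.3.3 in Python 3.11.15.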

Additional observations from a re-analysis of the deposited data

Results flagged for a closer look

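The diet effect on Apoa1 differed between Pd3 and Pd21 by -2.53 on the log2 scale (SE 0.66, adjusted p = 0.0377 from limma), from 2.56 at Pd3 to 0.03 at Pd21. All 3 F1-HHcy libraries were above all F1-Control libraries at Pd3, and the groups overlapped at Pd21. The diet effect on Apoe differed between the same days by -1.05 (SE 0.24, adjusted p = 0.0174 from limma), from 0.59 to -0.46. Pd3 and Pd21 were in different batches, so age and batch cannot be told apart in either difference, although each diet effect lies within 1 batch.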

How the results depend on the processing

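Counts are of the 6 tested genes. Called higher at Pd3 in F1-HHcy was 1 gene, which became 0 without a filter or with the replicate block, 2 with all 18 libraries in 1 model and 4 (with 1 lower in place of none) by the unadjusted criterion. Leaving out 1 library gave 0 to 5, the 5 without F1-HHcy Pd3 replicate 3. The share of all genes called in that fit is not given here, so the 5 cannot be set against a background. Of 3 genes higher at Pd7, 0 remained without a filter and 2, Apoa1 no longer among them, with a pseudocount of 0.1, median-ratio scaling, voom with or without a filter or all 18 libraries in 1 model, and leaving out 1 library gave 0 to 3 higher and 0 to 1 lower. Apoc1, at -1.03, was the 1 called lower at Pd7 with the replicate block (adjusted p = 0.0142 from limma) and by the unadjusted criterion. From Pd3 to Pd7, the 3 genes higher in F1-Control became 1 without a filter and 1 to 4 with 1 library left out. In F1-HHcy the count of 0 became 1 higher in the model of 18 libraries and 2 higher and 1 lower by the unadjusted criterion, and 0 to 2 higher and 0 to 1 lower with 1 library left out. Of differences between days, 0 drops from Pd3 to Pd7 became 1 by the unadjusted criterion and 0 to 1 with 1 library left out. The 2 drops from Pd3 to Pd21 became 1 without a filter, with the replicate block, and with voom with or without a filter, 4 by the unadjusted criterion and 0 to 3 with 1 library left out. From Pd7 to Pd21, 0 became 1 with median-ratio scaling, 3 by the unadjusted criterion and 0 to 2 with 1 library left out. By the unadjusted criterion, 771, 1320 and 1420 of all 14607 genes tested had a drop in these contrasts, in the order given. For fits with 1 library left out, shares of all genes are not given here, so those counts have no background. The fit without a filter tests more genes, and a fit with 1 library left out rests on fewer libraries. Why the counts changed was not tested for any setting.

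Directions that turned belonged to changes that were not called. The Pd21 change of Lrp1 became 0.027 with median-ratio scaling, and the Pd3 to Pd7 difference of Vldlr (0.09) became -0.112 with a pseudocount of 0.1, -0.167 with voom and -0.168 with voom without a filter. With 1 library left out, the Pd21 changes ranged from -0.140 to 0.265 for Apoa1, -0.593 to 0.101 for Apoc1, -0.563 to 0.061 for Lpl and -0.142 to 0.117 for Lrp1, and the Pd3 to Pd7 change of Lpl in F1-HHcy from -0.002 to 0.372. The Pd3 to Pd7 differences ranged from -0.589 to 0.204 for Apoc1, -0.246 to 0.128 for Lpl, -0.029 to 0.612 for Lrp1 and -0.209 to 0.421 for Vldlr.

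No pairing of libraries by replicate number was given in the sources used here. Same-numbered libraries deviated together, with weak correlations, only from Pd3 to Pd7 in F1-Control, where the replicate block changed no call of the 6 genes. Elsewhere the block ended the call of Lrp1 at Pd3 (adjusted p = 0.109 from limma) and of the Apoa1 difference from Pd3 to Pd21 (adjusted p = 0.0626). Over all genes at Pd3, 218 higher and 190 lower became 0 and 1 with the block, 0 and 0 without a filter and 458 and 423 in the model of 18 libraries. Over all genes at Pd7, 782 and 795 became 62 and 29 without a filter. Depth limits Apob, Apod and Apoa2, which had few fragments.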
